A study of Drosophila melanogaster with 31 samples.

Results

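The regions described here were the H3K9me3 peaks on the arms 2L, 3L and 3R of *Drosophila melanogaster* that lay away from the centromere. They were taken by position alone: a start under 21500000 on 2L, a start under 22500000 on 3L, or an end over 500000 on 3R, in dm3 coordinates. By this rule 665 of the 3497 peaks in Nxf2-KD cells and 769 of the 4023 peaks in Panx-KD cells were members, 1434 of 7520 peaks in both lists. They are called islands below, with 1 island being 1 peak as the authors called it.

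Both lists came from ovarian somatic cells (OSC), a cultured line of follicle cell origin, grown at 26 degrees and transfected with small interfering RNA against Nxf2 (RNAi Nxf2) or against Panx (RNAi Panx). The chromatin part of the series, which had 31 samples in all, held 2 H3K9me3 immunoprecipitations and 1 input of Nxf2-KD cells, and 2 immunoprecipitations and 1 input of Panx-KD cells. The file names call the deposited lists merged, with 1 list per knockdown, so no value below has a replicate check and no test compares the knockdowns. No H3K9me3 peak list of control (EGFP-KD) cells was analysed here, and the efficiency of the knockdowns was not analysed here either. The read depth behind the lists is unknown. A longer list or a higher score in one of them therefore cannot be told apart from deeper or more efficient immunoprecipitation. Because gene coordinates on dm3 were not used here, islands are given by position only.

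H3K9me3, trimethylation of lysine 9 on histone H3, is the histone mark of heterochromatin and is bound by HP1. In flies most of it lies around the centromeres, on the Y chromosome and on the fourth chromosome, while the distal arms are mostly euchromatin with isolated marked stretches, many of them at transposon insertions. In OSC the small RNA pathway of Piwi directs part of this mark to transposons. Panx acts downstream of Piwi in that silencing, and Nxf2, a relative of the general mRNA exporter Nxf1, forms a complex with Panx.

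The islands were spread along the whole of each arm. In the Nxf2-KD list 212 islands lay on 2L, 207 on 3L and 246 on 3R. The Panx-KD numbers were 253 on 2L, 228 on 3L and 288 on 3R. Over the stretch from the first to the last island this came to 9.87 islands per Mb on 2L, 9.54 on 3L and 9.13 on 3R in the Nxf2-KD list, and to 11.8 on 2L, 10.3 on 3L and 10.7 on 3R in the Panx-KD list. The arms were thus close to each other in density within each list. None of the 73 windows of 1 Mb was empty in either list, and the median window held 8 islands in the Nxf2-KD list and 10 in the Panx-KD list.

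A few windows stood well above that level. The densest lay on 3R between 25 and 26 Mb, with 37 islands covering 45.8 kb in the Nxf2-KD list and 50 islands covering 60.3 kb in the Panx-KD list. Between 17 and 18 Mb on 3L there were 23 Nxf2-KD and 26 Panx-KD islands, and between 20 and 21 Mb on 2L there were 22 and 25. Between 8 and 9 Mb on 3R each list had 23 islands, and none of them was isolated in either. Among full 1 Mb windows the fewest islands over both lists lay on 3R from 18 to 19 Mb, with 2 Nxf2-KD islands and 1 Panx-KD island.

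Gaps between islands were mostly either short or long. Among the 662 gaps between neighbouring Nxf2-KD islands, 213 (32.2%) were at most 1 kb, 102 were between 1 and 10 kb, 147 were between 10 and 100 kb and 200 (30.2%) were over 100 kb. The 766 Panx-KD gaps gave 262 (34.2%), 144, 149 and 211 (27.5%) in the same classes. In steps of 0.25 on the log10 scale, the fullest step below 10 kb held 42 Nxf2-KD gaps (0.316 to 0.562 kb) and 58 Panx-KD gaps (0.562 to 1.0 kb). The step from 10 to 17.8 kb held 16 and 17, and the fullest step above it held 68 Nxf2-KD gaps (56.2 to 100 kb) and 70 Panx-KD gaps (178 to 316 kb). The 10 kb used to separate clustered from isolated islands thus lies at the low point between them. In 84 Nxf2-KD and 86 Panx-KD gaps the neighbours were at most 100 bp apart, and the shortest gap was 1 bp in both lists, so some neighbours nearly touch. The median gap was 17.4 kb in the Nxf2-KD list and 5.65 kb in the Panx-KD list. With peaks within 1 kb merged first the medians were 84.4 kb (Nxf2-KD) and 69.4 kb (Panx-KD), and with a score of at least 100 they were 75.0 kb (Nxf2-KD) and 54.3 kb (Panx-KD). The unmerged medians fall near the sparsely filled middle, and the quartiles were closer: 0.519 and 140 kb in the Nxf2-KD list, and 0.485 and 125 kb in the Panx-KD list. The longest stretch without an island was 926 kb on 2L in the Nxf2-KD list and 916 kb on 3R in the Panx-KD list.

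**Figure D1:**
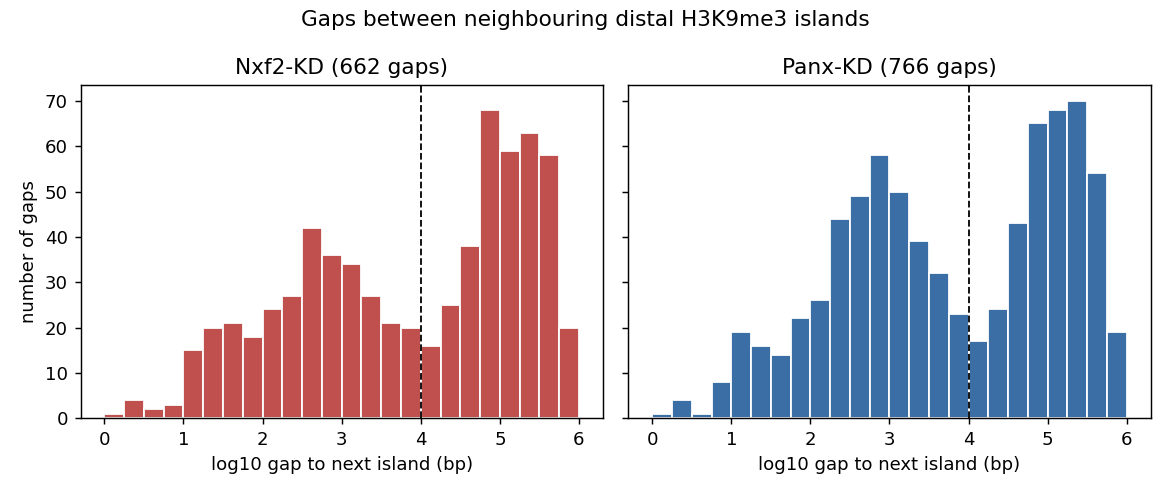
Number of gaps between neighbouring islands of the same arm (vertical axis) by the log10 of the gap in bp (horizontal axis) for the 662 gaps of the Nxf2-KD list (left) and the 766 gaps of the Panx-KD list (right), with the 10 kb limit as a dashed line. Each list has a hump of gaps near 1 kb and another near 100 kb, with a low point close to the limit.

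An island was isolated where no other peak of its list lay within 10 kb, measured edge to edge. That held for 208 of 665 Nxf2-KD islands (31.3%), against 10.9% of all Nxf2-KD peaks, and for 207 of 769 Panx-KD islands (26.9%), against 9.12% of all Panx-KD peaks. On the centromere-proximal stretches of the same 3 arms 2.18% of 413 Nxf2-KD peaks and 3.08% of 455 Panx-KD peaks were isolated, and on the X chromosome 19.5% of 514 and 13.5% of 690. Distal islands were therefore the most often isolated of these sets in both lists, as a description without a test. The arm 2R lies outside the rule and was not compared as a set of its own. By arm, the isolated share was 31.1% on 2L, 35.3% on 3L and 28.0% on 3R in the Nxf2-KD list, and 26.5% on 2L, 31.1% on 3L and 24.0% on 3R in the Panx-KD list. The order of the arms was the same in both lists. These shares depend on what counts as 1 island: with peaks within 1 kb merged first, 62.2% of Nxf2-KD and 55.6% of Panx-KD islands were isolated, which turns a majority of clustered islands into a majority of isolated ones.

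The most isolated Nxf2-KD island lay at chr3R:18706949-18710607, was 3659 bp wide with a score of 412, and had its nearest Nxf2-KD neighbour 673 kb away. The next were chr3L:404097-409696 (638 kb from its neighbour) and chr3R:15570024-15575150 (496 kb). In the Panx-KD list the most isolated were chr3R:15569997-15575145 (496 kb), chr3R:27517305-27522000 (406 kb) and chr3R:18706971-18710604 (394 kb). The islands starting at 15570024 and 18706949 on 3R recur in the Panx-KD list, with edges within 27 bp at the first site and within 22 bp at the second. All 6 were overlapped by a peak of the other list, against 79.3% (Nxf2-KD) and 74.9% (Panx-KD) of all isolated islands. The islands chr3L:404097-409696 and chr3R:27517305-27522000 were the most distal of their arm and list, so they had a neighbour on 1 side only. The Nxf2-KD counterpart of the latter, chr3R:27517342-27521999, was clustered, with a neighbour 4869 bp away.

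The other 457 Nxf2-KD and 562 Panx-KD islands were clustered. The Panx-KD island at the 2L limit, chr2L:21496338-21501358, was clustered only through a peak outside the rule. The Panx-KD clusters below therefore hold 561 islands. With islands linked at 10 kb, the Nxf2-KD list had 77 clusters of 2 islands, 47 of 3 to 4, 14 of 5 to 9 and 4 of 10 or more, the last holding 54 islands (8.12%). The Panx-KD list had 76, 49, 21 and 9 such clusters, and the 9 largest held 120 islands (15.6%). Small clusters were thus about as many in both lists, and the large ones were more in the Panx-KD list, which was also the longer list.

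The largest cluster was at the same place in both lists. It spanned chr3R:8291657-8348169 with 21 islands covering 30.1 kb of its 56.5 kb in the Nxf2-KD list, and chr3R:8291655-8344005 with 21 islands covering 31.9 of 52.4 kb in the Panx-KD list. In each list 19 of these 21 islands were overlapped in the other. For this and the next clusters, the overlapped share over all islands was 85.4% (Nxf2-KD) and 72.7% (Panx-KD). A second cluster, chr2L:7924729-7960286 with 12 Nxf2-KD islands (14.9 kb covered), corresponded to chr2L:7924514-7960028 with 15 Panx-KD islands (14.5 kb covered). Here the Panx-KD list had more islands over almost the same covered length, and 10 islands of each list were overlapped in the other. The third Nxf2-KD cluster, chr3R:799974-843882, was nearly continuous: its 11 islands covered 92.1% of its 43.9 kb, their median width was 2827 bp, and all 11 were overlapped by the 12 Panx-KD islands there. The Panx-KD cluster chr3R:25211565-25268037, with 20 islands covering 22.0 kb, was matched by 13 Nxf2-KD islands covering 15.4 kb, and 12 of the 20 were overlapped. This cluster lies in the densest window.

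**Figure D2:**
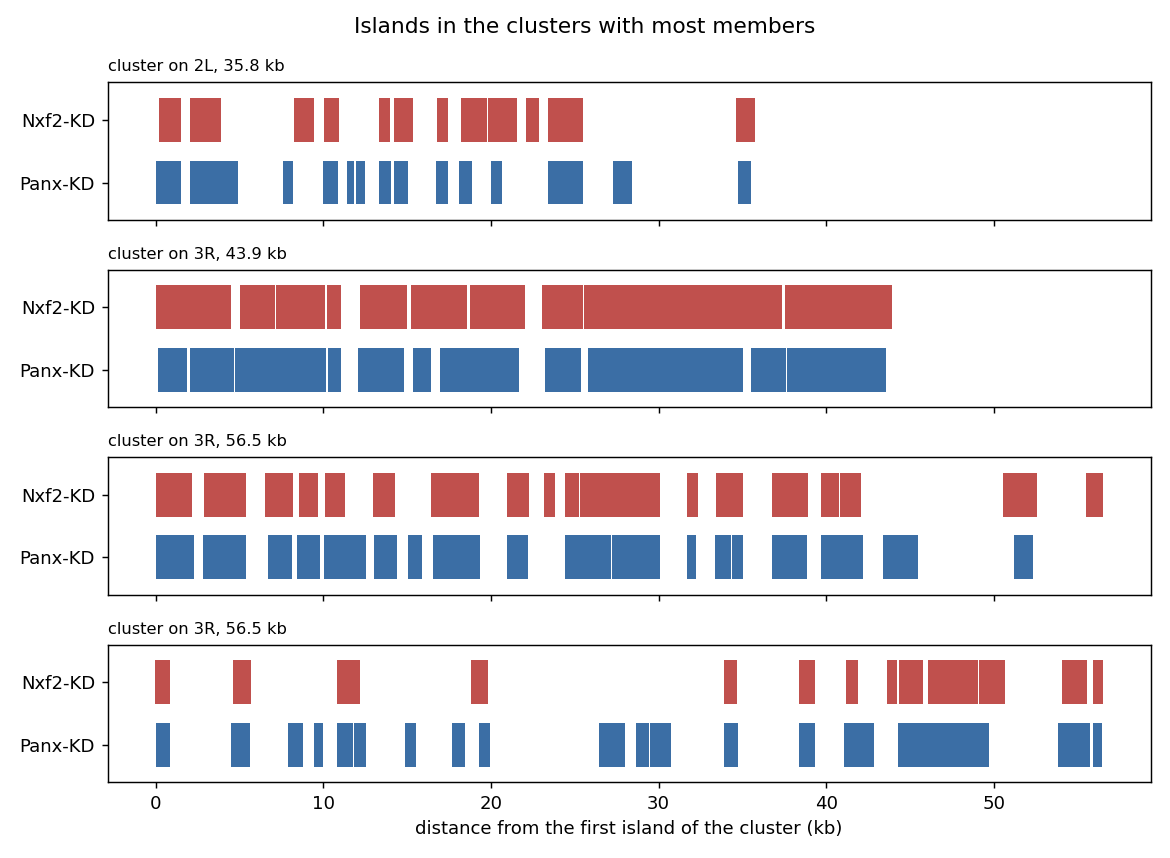
Islands of the clusters with most members, drawn to scale as boxes along the distance in kb from the first island of the cluster (horizontal axis), for 1 cluster on 2L and 3 on 3R, with Nxf2-KD islands in the upper and Panx-KD islands in the lower row of each panel. Most islands recur at the same places in both rows in the 2 upper 3R clusters. The 2L panel has 12 Nxf2-KD islands against 15 Panx-KD islands, with 10 of each overlapped. The overlapped share over all islands was 85.4% (Nxf2-KD) and 72.7% (Panx-KD). The lowest panel has 13 Nxf2-KD islands against 20 Panx-KD islands.

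The median width was 1519 bp (quartiles 1031 and 2692 bp, range 350 to 11784 bp) in the Nxf2-KD list and 1360 bp (quartiles 874 and 2387 bp, range 306 to 9234 bp) in the Panx-KD list. With peaks within 1 kb merged first the medians were 2394 bp (Nxf2-KD) and 2234 bp (Panx-KD), and with a score of at least 100 they were 2294 bp (Nxf2-KD) and 1976 bp (Panx-KD). Unmerged peaks of the X chromosome were narrower than the islands, with medians of 1311 bp (Nxf2-KD) and 1179 bp (Panx-KD), and centromere-proximal peaks of the same arms were wider, with 1900 bp (Nxf2-KD) and 1599 bp (Panx-KD). All peaks outside the rule had medians of 1758 bp in the Nxf2-KD list and 1596 bp in the Panx-KD list, and their widest reached 26006 and 29443 bp. Distal islands over 5 kb numbered 50 in the Nxf2-KD list and 60 in the Panx-KD list. Islands under 1 kb numbered 154 (23.2%) and 251 (32.6%). In all, islands covered 1452.1 kb in the Nxf2-KD list and 1545.4 kb in the Panx-KD list. The widest on each arm in the Nxf2-KD list were chr2L:11540396-11548215 (7820 bp), chr3L:17744898-17756184 (11287 bp) and chr3R:825541-837324 (11784 bp). Those of the Panx-KD list were chr2L:3251297-3259280 (7984 bp), chr3L:17333108-17341845 (8738 bp) and chr3R:825750-834983 (9234 bp). Both 3R islands lie inside the nearly continuous cluster at chr3R:799974-843882.

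As called, isolated islands were wider than clustered ones in both lists. A stretch called as several peaks counts as clustered and narrow, and 32.2% (Nxf2-KD) and 34.2% (Panx-KD) of gaps were at most 1 kb. The contrast was not recomputed with such peaks merged, so how far it depends on this was not tested. In the Nxf2-KD list the median was 1881 bp in isolated and 1419 bp in clustered islands, and in the Panx-KD list it was 1726 bp in isolated and 1264 bp in clustered islands. The upper quartile showed the larger gap, at 4639 against 2267 bp in the Nxf2-KD list and 4654 against 2110 bp in the Panx-KD list. The widths of isolated islands had a second mode. In the Nxf2-KD list 29 isolated islands were 2 to 3 kb wide, 8 were 3 to 4 kb and 35 were 4 to 5 kb. These numbers were 19, 8 and 35 in the Panx-KD list. Isolated islands of 4 to 6 kb made up 25.0% of the isolated Nxf2-KD islands (52 of 208) and 26.1% of the isolated Panx-KD islands (54 of 207), against 5.91% and 5.52% of the clustered ones.

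Most of these isolated islands of 4 to 6 kb had a peak of the other list on them. In the Nxf2-KD list 51 of the 52 were overlapped by a Panx-KD peak, 44 had a partner of 4 to 6 kb as well, and 40 had a partner that was also isolated. In the Panx-KD list 52 of the 54 were overlapped, 42 had a partner of 4 to 6 kb and 40 an isolated partner. Islands over 5 kb of any kind were overlapped in 96.0% (Nxf2-KD) and 98.3% (Panx-KD), so these overlaps are about those of other wide islands. They lay on every arm, with 11 on 2L, 23 on 3L and 18 on 3R in the Nxf2-KD list and 13 on 2L, 20 on 3L and 21 on 3R in the Panx-KD list. On the X chromosome 10 of 100 isolated Nxf2-KD peaks and 13 of 93 isolated Panx-KD peaks were 4 to 6 kb wide. The class limits were set after the widths were seen.

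The mode was narrow. Between 4650 and 4799 bp lay 29 Nxf2-KD islands and 32 Panx-KD islands, while the other 25 windows of 150 bp between 3000 and 6899 bp held 0 to 11 Nxf2-KD and 0 to 7 Panx-KD islands. This band was chosen after the widths were seen. Of the 29 Nxf2-KD islands 23 were isolated, and of the 32 Panx-KD islands 21 were. The rest were clustered, so the band was not confined to isolated islands. They lay on all 3 arms, with 11 on 2L, 11 on 3L and 7 on 3R in the Nxf2-KD list and 11, 11 and 10 in the Panx-KD list. All 29 and all 32 were overlapped in the other list, which is near the share in the highest score quintile of all islands, 99.2% (Nxf2-KD) and 100% (Panx-KD). Their scores ran from 148 to 1416 with a median of 626 in the Nxf2-KD list, and from 233 to 1504 with a median of 888 in the Panx-KD list, well above the list medians of 120 and 126. Pairs of such islands matched 1 to 1, with both widths in the band, numbered 19. In these pairs the larger of the 2 edge offsets had a median of 28 bp and a maximum of 112 bp. Asking for both widths in the band selects pairs of near-equal width, which favours small offsets. Of all band islands, 22 of 29 (Nxf2-KD) and 25 of 32 (Panx-KD) had a partner with edges within 250 bp. At chr2L:19659100-19663898 in the Nxf2-KD list and chr2L:19659100-19663896 in the Panx-KD list the starts were identical and the ends 2 bp apart. At chr3R:11560962-11565677 and chr3R:11560985-11565700 both islands were 4716 bp wide. On the X chromosome the band held 9 of 514 Nxf2-KD peaks (1.75%) and 6 of 690 Panx-KD peaks (0.87%), against 4.36% and 4.16% of the distal islands.

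**Figure D3:**
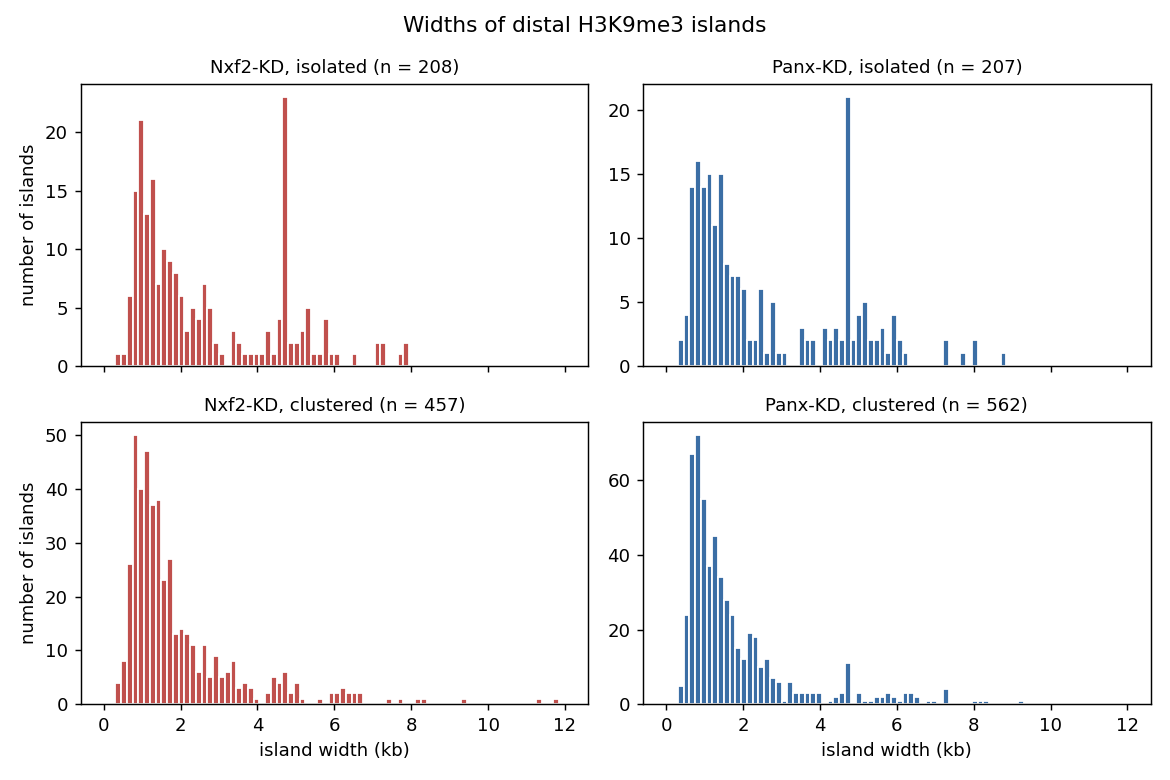
Number of islands (vertical axis) by width in kb (horizontal axis, bins of 150 bp) for isolated islands (upper row) and clustered islands (lower row) of the Nxf2-KD list (left) and the Panx-KD list (right). A sharp bar at 4650 to 4799 bp stands out among isolated islands, with 23 Nxf2-KD and 21 Panx-KD islands. The rest of the 29 Nxf2-KD and 32 Panx-KD islands of this width were clustered.

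The score is the authors' value for each peak, and it is described within a list only. Its lowest value among the islands was just above 50 in both lists (50.07 in the Nxf2-KD list and 50.34 in the Panx-KD list). The median was 120 in the Nxf2-KD list (quartiles 73.1 and 259) and 126 in the Panx-KD list (quartiles 76.7 and 297). A score of at least 100 was reached by 386 of 665 Nxf2-KD islands (58.0%, against 62.6% of all Nxf2-KD peaks) and 471 of 769 Panx-KD islands (61.2%, against 65.6% of all Panx-KD peaks). Wide islands had high scores: across islands, which are not independent replicates, width and score had a Spearman rho of 0.77 in the Nxf2-KD list (n = 665) and 0.81 in the Panx-KD list (n = 769), and both depend on the reads of the same libraries. The median score was 154 in isolated and 112 in clustered Nxf2-KD islands, and 165 in isolated and 118 in clustered Panx-KD islands. This contrast was not recomputed with neighbouring peaks merged either.

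The highest scores among the islands were reached at a handful of sites. Those highest on their arm in the Nxf2-KD list had 3209.8 at chr3R:6783436-6789245, 3142 at chr2L:10138164-10143533 and exactly 3100 at chr3L:13567546-13573777. Exactly 3100 recurs in both lists, but it is not the highest score of either. Peaks outside the rule reached 3176.53 (Nxf2-KD) and 3195.07 (Panx-KD). Whether 3100 is a ceiling for some peaks was not tested, so an island at that value is not ranked here against those above it. In the Panx-KD list 5 islands shared exactly 3100 and cannot be ranked among themselves: chr2L:10138004-10143626, chr3R:6783448-6789249, and chr3L:5452767-5459967, chr3L:12912189-12918062 and chr3L:13567765-13573445. The islands that were highest on each arm in the Nxf2-KD list were thus all at sites of the tied maximum among Panx-KD islands. These islands were 5370 to 6232 bp wide in the Nxf2-KD list.

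Most islands were found in both lists. With an overlap of at least 1 bp, 568 of 665 Nxf2-KD islands (85.4%) were overlapped by a Panx-KD peak, against 89.0% of all Nxf2-KD peaks. Of the 769 Panx-KD islands 559 (72.7%) were overlapped by an Nxf2-KD peak, against 76.7% of all Panx-KD peaks. Both shares were thus a little under those of the whole lists. Centromere-proximal peaks of the same arms were overlapped in 93.5% (Nxf2-KD) and 81.5% (Panx-KD), and X chromosome peaks in 84.2% and 63.0%. The arms differed little: the overlapped share was 84.9% on 2L, 86.0% on 3L and 85.4% on 3R in the Nxf2-KD list, and 70.8%, 75.4% and 72.2% in the Panx-KD list. In base pairs, 1242.2 kb were shared, which is 85.5% of the length covered in the Nxf2-KD list and 80.4% of that in the Panx-KD list, with a Jaccard index of 0.708.

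Overlap was more frequent at higher scores inside each list. From the lowest to the highest score quintile the overlapped share was 54.9%, 80.5%, 93.2%, 99.2% and 99.2% in the Nxf2-KD list. For the Panx-KD list it was 30.7%, 60.4%, 76.0%, 96.1% and 100%. The quintiles with nearly complete overlap started at a score of 148 in the Nxf2-KD list and 165 in the Panx-KD list. Island width followed the same classes. The median width was 912 bp in the lowest and 4698 bp in the highest Nxf2-KD quintile, and 750 bp in the lowest and 4695 bp in the highest Panx-KD quintile. Isolation did not follow them step by step. From the lowest to the highest quintile the isolated share was 30.8%, 22.6%, 24.1%, 27.8% and 51.1% in the Nxf2-KD list, and 24.2%, 18.8%, 24.0%, 17.5% and 50% in the Panx-KD list. The highest quintile stood above the other 4 in both lists, and the lowest came next. By width alone the picture was alike, with 66.9% of Nxf2-KD islands under 1 kb and 96.0% of those over 5 kb overlapped, and 42.6% and 98.3% in the Panx-KD list.

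**Figure D4:**
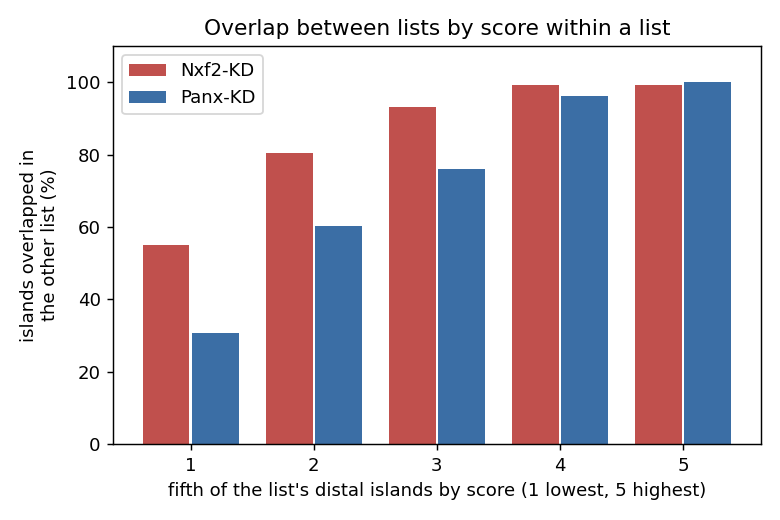
Share of islands overlapped by at least 1 bp in the other list (vertical axis, percent) by score class, cut at equal numbers of islands, within a list (horizontal axis, lowest to highest), for the Nxf2-KD list (left bar of each pair) and the Panx-KD list (right bar). The bars climb to 99.2% and 100%, and the lowest class has 54.9% in the Nxf2-KD list and 30.7% in the Panx-KD list.

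Isolated islands found in both lists were wider than those found in 1 list. Of the Nxf2-KD islands, 165 of the 208 isolated ones (79.3%) were overlapped, against 88.2% of the clustered ones. In the Panx-KD list 155 of 207 isolated islands (74.9%) were overlapped, against 71.9% of the clustered ones, so the order of isolated and clustered islands was not the same in both lists. The overlapped isolated islands had a median width of 2504 bp (Nxf2-KD) and 2511 bp (Panx-KD), and the isolated islands without overlap had 996 bp (Nxf2-KD) and 917 bp (Panx-KD).

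Where islands could be paired 1 to 1, their edges lay close together. There were 420 such pairs, and the width in the Nxf2-KD list over that in the Panx-KD list had a median ratio of 0.999 (quartiles 0.946 and 1.09). The Nxf2-KD island was wider in 207 pairs and the Panx-KD island in 212. In 290 pairs (69.0%) both edges lay within 250 bp, and in 22 pairs an edge was over 1 kb apart. Across the pairs the widths had a Spearman rho of 0.87. Among the 128 pairs isolated in both lists, 78.9% had both edges within 250 bp. Islands met by 2 or 3 peaks of the other list numbered 44 and 5 in the Nxf2-KD list and 54 and 5 in the Panx-KD list, and were wider, with a median of 2800 and 4376 bp in the Nxf2-KD list and 3564 and 4366 bp in the Panx-KD list.

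The pairs with the highest scores in both lists were chr2L:10138164-10143533 (Nxf2-KD) with chr2L:10138004-10143626 (Panx-KD), and chr3R:6783436-6789245 (Nxf2-KD) with chr3R:6783448-6789249 (Panx-KD). In the first the wider, Panx-KD island contained the Nxf2-KD one, and in the second the edges were 12 and 4 bp apart. The pair chr3L:13567546-13573777 with chr3L:13567765-13573445 had a score of exactly 3100 in both lists and is not ranked against these. In it the Nxf2-KD island of 6232 bp contained the Panx-KD island of 5681 bp. The last were chr3L:12912172-12918007 with chr3L:12912189-12918062 and chr3R:23617409-23620708 with chr3R:23617168-23620722, at 5836 against 5874 bp and 3300 against 3555 bp.

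A width ratio of 2 or more was seen in 19 pairs, with the Nxf2-KD island wider in 11 and the Panx-KD island in 8. In the only such pair isolated in both lists, the Nxf2-KD island chr2L:15586971-15592711 was 5741 bp wide with a score of 191, and the Panx-KD island chr2L:15589147-15590574 inside it was 1428 bp wide with a score of 77.3. The reverse order, with a smaller ratio, was seen at chr2L:6877482-6880463 (Nxf2-KD, 2982 bp) and chr2L:6877464-6882876 (Panx-KD, 5413 bp), and at chr3R:23551340-23554478 (Nxf2-KD, 3139 bp) and chr3R:23551347-23556729 (Panx-KD, 5383 bp). In both, the starts lay within 18 bp and the ends over 2 kb apart.

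**Figure D5:**
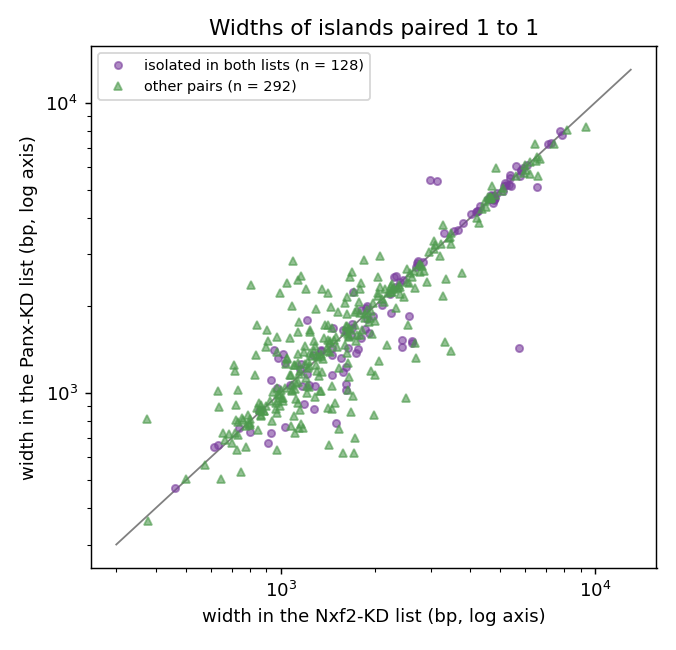
Width of each of the 420 islands paired 1 to 1, in the Nxf2-KD list (horizontal axis, bp, log axis) and in the Panx-KD list (vertical axis, bp, log axis), with 128 pairs isolated in both lists as circles, the other 292 as triangles and a line at equal width. Points lie on both sides of the line, with the 5741 bp against 1428 bp pair far below it.

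Islands in 1 list alone were narrow and low in score. They made up 14.6% of the Nxf2-KD and 27.3% of the Panx-KD islands, against 10.1% and 22.3% of the peaks outside the rule. The 97 Nxf2-KD islands without a Panx-KD peak had a median width of 988 bp and a median score of 59.4, against 1684 bp and 138 in the overlapped ones. The 210 Panx-KD islands without an Nxf2-KD peak had a median width of 826 bp and a median score of 70.1, against 1678 bp and 191. A score of at least 100 was reached by 9 of the 97 (9.28%) and by 45 of the 210 (21.4%). Many lay beside a peak of the other list: 59 of 97 and 147 of 210 were within 10 kb of one, and 31 and 71 within 1 kb. Beyond 10 kb lay 39.2% (Nxf2-KD) and 30.0% (Panx-KD). Of all islands, 31.3% (Nxf2-KD) and 26.9% (Panx-KD) had no peak of their own list within 10 kb. This closeness was thus near the general level of clustering and is not read as particular to these islands. When the peaks of both lists were linked at 10 kb, they formed 398 loci, of which 310 (77.9%) held peaks of both lists, 36 (9.05%) of the Nxf2-KD list alone and 52 (13.1%) of the Panx-KD list alone. Loci without an island were not counted, so these shares have no background to set them against. Of the 36 Nxf2-KD loci 34 held 1 island, as did 47 of the 52 Panx-KD loci. The 310 loci with both held 627 of the 665 Nxf2-KD and 711 of the 769 Panx-KD islands. Among them 40 had more Nxf2-KD islands, 83 had more Panx-KD islands and 187 had equal numbers. On 2L 98 loci held both lists, 15 the Nxf2-KD list alone and 20 the Panx-KD list alone. On 3L these numbers were 105, 9 and 14, and on 3R they were 107, 12 and 18.

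The largest exception was chr3R:3521384-3529154, an Nxf2-KD island of 7771 bp with a score of 858 and no Panx-KD peak on it. The nearest Panx-KD peak lay 4104 bp away. In that locus the next 3 Nxf2-KD islands, of 938, 1222 and 2683 bp, each had a Panx-KD counterpart, of 799, 1292 and 1487 bp. The next highest scores among Nxf2-KD islands without overlap were 182 at chr2L:433036-435333, where the nearest Panx-KD peak was 70.9 kb away, and 138 at chr3L:17738263-17739823, with a Panx-KD peak 851 bp away. The 3 highest among Panx-KD islands without overlap were chr3R:8335010-8337150 (score 249), chr3R:25090033-25092118 (235) and chr3R:3601490-3603615 (233). All 3 were about 2.1 kb wide and had an Nxf2-KD peak within 2594 bp.

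At the tip of 2L both lists began with a row of short islands. In the Nxf2-KD list 4 islands of 374 to 379 bp lay between positions 227 and 3808, with gaps of 539 to 998 bp and scores of 51.9 to 57.9. In the Panx-KD list 5 islands of 351 to 812 bp lay between 219 and 3345, with gaps of 102 to 552 bp and scores of 57.4 to 93.4. In each list 2 of them were overlapped in the other. The overlapped share was 85.4% (Nxf2-KD) and 72.7% (Panx-KD) over all islands, and 54.9% and 30.7% in the lowest score quintile. The next island followed after 357 kb (Nxf2-KD) and 356 kb (Panx-KD). On 3L the most distal island started at 404097 in the Nxf2-KD list and at 27653 in the Panx-KD list, and on 3R the most distal island ended at 27528135 in the Nxf2-KD list and at 27522000 in the Panx-KD list.

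At the limits of the rule, the islands just inside and the peaks just outside were as follows. On 2L the innermost Nxf2-KD island was chr2L:21481394-21485595 (4202 bp, score 115) and the first peak outside chr2L:21501344-21504265 (2922 bp, score 65.2). In the Panx-KD list they were chr2L:21496338-21501358 (5021 bp, score 163) and chr2L:21501365-21502712 (1348 bp, score 62.9), only 6 bp apart. On 3L a gap separated them, with chr3L:22098129-22098694 (566 bp) inside and chr3L:22570794-22575654 (4861 bp) outside in the Nxf2-KD list, and chr3L:22093092-22098057 (4966 bp) and chr3L:22570789-22575483 (4695 bp) in the Panx-KD list. On 3R the first island inside was chr3R:579045-583231 (Nxf2-KD, score 709) and chr3R:579041-583239 (Panx-KD, score 363), and the last peak outside was chr3R:417862-419050 (Nxf2-KD, score 57.3) and chr3R:418050-419178 (Panx-KD, score 75.7).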

How the data were processed

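Per the file names, the authors deposited 1 merged H3K9me3 peak list for Nxf2-KD and 1 for Panx-KD cells. Each deposited list gives a start, an end and a score per peak. Per the submitters' processing notes the build was dm3 and the tools were cutadapt, Bowtie 1.0 and MACS 1.4.2, with no role or order stated. Peak names in the files are those of MACS, whose score is usually −10 log10 of a p-value, which the files do not state. Whether the inputs were used is not given in the sources used here. Separately called lists depend on depth and merging, so scores were used within a list only.

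Members were taken by position. Gaps were measured edge to edge, islands within 10 kb of another peak counted as clustered, and an overlap of 1 bp counted as shared. Overlapped islands were counted against all peaks of the other list, while shared base pairs and 1 to 1 pairs were taken between islands. Alternatives that filtered or merged peaks did so in both lists, except where a score was asked of 1 list only. Coordinates are printed 1-based. Python 3.11.15 with pandas 2.3.3 was used, and the interval functions passed 7 of 7 checks on simulated intervals, some of them against bedtools 2.31.1. Named islands were the highest-scoring and widest per arm, the 3 largest clusters, the 3 most isolated, the 3 highest-scoring without overlap, the 5 top pairs and those at the limits. Others named, such as the width band, the unequal pairs and the arm tips, were chosen after their values were seen. The members and lists were chosen with earlier results of these data known. No test was run, because each knockdown has 1 list, and resampling over peaks would not measure sample error. Alternatives were a score of at least 100, limits moved by 1 Mb, peaks merged within 1 kb, other distances and other overlaps. Element lengths came from the deposited RNA table.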

Additional observations from a re-analysis of the deposited data

How the results depend on the processing

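The number, isolated share, median gap, median width, median score, overlapped share and covered length of islands were recomputed, each under the alternatives that bear on it. Clusters, loci, pairs, score quintiles and width classes were not. A share or median was counted as moved when it left a 95% interval over peaks (Wilson for shares, order statistics for medians), which is only a yardstick of size, since peaks of 1 list are not replicates. A number or length was counted as moved past 1.5 times. By this yardstick 27 of 60 values moved. Moving the limits by 1 Mb moved none of these 7 kinds of value. Leaving out the densest 1 Mb window, added after the data were seen, was run for the number, isolated share and overlapped share and moved none of those. With a score of at least 100, islands numbered 386 (Nxf2-KD) and 471 (Panx-KD), the isolated share was 46.1% and 39.9%, the median gap 75.0 and 54.3 kb, the median width 2294 and 1976 bp, and the Nxf2-KD overlapped share 88.3%. The Panx-KD overlapped share was 72.0% at that score and did not count as moved. With that score asked of 1 list only, the overlapped share was 97.7% and 90.4%. Merging peaks within 1 kb left 452 Nxf2-KD and 507 Panx-KD islands, of which only the Panx-KD number counted as moved. By its own construction it gave isolated shares of 62.2% and 55.6%. Median gaps became 84.4 and 69.4 kb and median widths 2394 and 2234 bp. The isolated share was 35.3% and 30.9% at 5 kb and 20.2% and 18.6% at 50 kb. The overlapped share was 72.6% and 62.8% at a reciprocal overlap of 50%, and 90.1% and 81.9% within 1 kb. With the 500 highest-scoring islands of each list, also added later, it was 83.8% in the Nxf2-KD list and 81.8% in the Panx-KD list. Only the Panx-KD share counted as moved there. The cause of these moves was otherwise not tested. No paired analysis was possible because each knockdown has 1 merged list with no replicate numbers, and for the same reason no replicate could be left out. Read depth is unknown, so an island missing from 1 list may lie under its detection limit.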

Other observations

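The narrow width band of the islands, 4650 to 4799 bp, can be set beside the lengths of the transposable element consensus entries in the deposited RNA table. Of 129 entries 8 have a length in the band, from 4651 to 4793 bp: GYPSY8, DOC5, FW, BS2, DOC, DOC3, BLASTOPIA and DOC2. Most of these are non-LTR elements of the jockey clade. Whether any island holds a copy of any of them was not tested. Entries in other length windows were not counted, so the number in the band has no background here.

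The Panx-KD island farthest from any Nxf2-KD peak was chr3R:24172679-24173421, 743 bp wide with a score of 106, at 416 kb. The Nxf2-KD island farthest from any Panx-KD peak was chr3L:8784442-8789785, at 280 kb. It was 5344 bp wide, yet its score of 53.0 was near the lowest of the list. On chr2L:3251297-3259280 the widest Panx-KD island of that arm, of 7984 bp, had a score of 105, below the Panx-KD list median of 126.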
